A study of Mus musculus with 6 samples.

Results

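The genes described here are 10 feedback and target genes of the RAS-ERK pathway, listed by name as the Sprouty genes *Spry1*, *Spry2* and *Spry4*, the Sprouty-related genes *Spred1* and *Spred2*, the dual-specificity phosphatase genes *Dusp4*, *Dusp5* and *Dusp6*, and the ETS transcription factor genes *Etv4* and *Etv5*. All 10 were found by symbol among the 24972 gene symbols of the table, and all 10 were among the 14456 genes tested. RNA-Seq had been carried out on isolated lung endothelial cells (iLECs) at P7, with 3 libraries from control and 3 from *Atp6ap2* iECKO mice. By the labels, the controls carried a floxed *Atp6ap2* allele over Y (fl/Y) without Cre, and the iECKO mice carried the same allele with *Cdh5*-CreERT2, a Cre recombinase that acts after tamoxifen in cells using the promoter of the endothelial gene *Cdh5*. Every pup, controls included, had received 100 µg of tamoxifen on P1, P2 and P3, so no group was without the drug, and no group had Cre without the floxed allele. The labels give the strain as C57BL/6, while the study's methods describe a mixed background of CD1 and C57BL/6. iLECs were the cells held by magnetic beads coated with an antibody to CD31 (the product of *Pecam1*), taken from digested lung. Values are normalized counts, which are read counts that the authors had already scaled between libraries.

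Growth factor receptors on endothelial cells, such as those for VEGF and FGF, act through RAS, RAF, MEK and ERK. ERK activity then switches on genes whose products turn the pathway down again. Sprouty and Spred proteins act near the membrane, between the receptor and RAF, and Spred proteins do so together with the RAS inactivator neurofibromin. DUSP4, DUSP5 and DUSP6 remove the activating phosphates from ERK in the nucleus (DUSP4 and DUSP5) or the cytoplasm (DUSP6). ETV4 and ETV5, with their relative ETV1, form the PEA3 group of ETS transcription factors, which carry FGF signals to target genes. The mRNAs of these genes are commonly measured as a readout of ERK activity, and in the developing lung the epithelium is known to express *Etv4* and *Etv5* downstream of FGF.

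Before the comparison, the libraries were checked against their labels. *Atp6ap2* itself was listed at 7490, 5815 and 5681 normalized counts in the control libraries and at 4220, 2336 and 1982 in the iECKO libraries, which did not overlap (log2 fold change -1.22, SE 0.26, adjusted *P* value of 0.0306 by limma). iECKO replicate 1 thus kept the most *Atp6ap2* mRNA of its group. The adjusted *P* value of *Atp6ap2* passed 0.05 in 1 of the 6 fits that left out a library, which ranged from 0.00604 to 0.103. *Xist*, the RNA that female cells make from their silenced X chromosome, was listed at 31.7 in control replicate 3 and 19.3 in iECKO replicate 2, and at 37704 to 47487 in the other 4 libraries, although every label gives the genotype fl/Y. Results are therefore given below with these libraries in and left out. The study describes its control and iECKO mice as fl/Y males and fl/fl females, and used neonates of both sexes. Whether the 4 libraries with *Xist* came from fl/fl females is not stated. Totals were between 26243878 and 28725799 normalized counts, and libraries of a genotype correlated with each other at r = 0.972 to 0.979 over the genes tested.

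The tissue label was compared with cell type markers. The defining endothelial markers were abundant and did not pass the test, with *Pecam1* at 52750 and 57016, *Cdh5* at 92569 and 96010 and *Tie1* at 31692 and 27681 normalized counts (control and iECKO means). Of 15 endothelial markers tested, only *Tek* was called, as lower. The endothelial sum was 377278 to 486685 in controls and 380391 to 448962 in iECKO libraries. Markers of other cells were present as well, and none was at 0 in all libraries. Of 13 fibroblast markers tested, 11 were lower, with *Pdgfra* at 692 against 1740, *Col1a1* at 4048 against 12977 and *Col1a2* at 6104 against 18914 normalized counts. Their sum was 82201 to 128712 in controls against 28482 to 41277 in iECKO libraries, 31.2% of the control mean. Of 15 mural and smooth muscle markers, 10 were lower, with *Tagln* at 555 against 1392 and *Myh11* at 628 against 1708. *Acta2*, at 431 against 1205, had an adjusted *P* value of 0.0504 by limma. At an unadjusted *P* value below 0.05 by limma, 14 of these 15 mural markers were lower. Over all genes tested, 4.97% were called lower and 12.3% were lower unadjusted. This list had sums of 26556 to 38659 against 10435 to 13670, 34.0% of the control mean. Epithelial sums (31300 to 79244 against 38150 to 45728, highest in control replicate 3, 1 of 15 called, *Scgb1a1*, higher) and leukocyte sums (8939 to 16244 against 7910 to 21204, 0 of 14 called by limma and 0 with an unadjusted *P* value below 0.05) overlapped between genotypes. The defining epithelial markers *Epcam* (138 against 182), *Cdh1* (718 against 844) and *Sftpc* (18533 against 22765) and the leukocyte markers *Ptprc* (2021 against 1461), *Cd68* (374 against 297) and *Itgam* (398 against 269) were not called. In such bulk samples, fewer cells of a type and less RNA per cell cannot be told apart.

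In the test across all genes, 1 of the 10 feedback genes, *Dusp6*, passed an adjusted *P* value of 0.05 as lower in iECKO iLECs, beside 4.97% of all genes tested. None was called higher, beside 3.28% of all genes. With unadjusted *P* values below 0.05, *Dusp6*, *Spry1* and *Spry2* were lower (3 of 10, background 12.3%) and *Etv4* was higher (1 of 10, background 11.6%). The same 3 genes were lower in every iECKO library than in every control library (background 15.0%), and *Etv4* was higher in every one (background 14.7%). The median log2 fold change of the 10 genes was -0.03, with 5 values below and 5 above 0, beside a median of 0.00 (0.00488) and 49.3% below 0 over all genes. The members thus lay on either side of 0, and they are described by role.

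**Figure D1:**
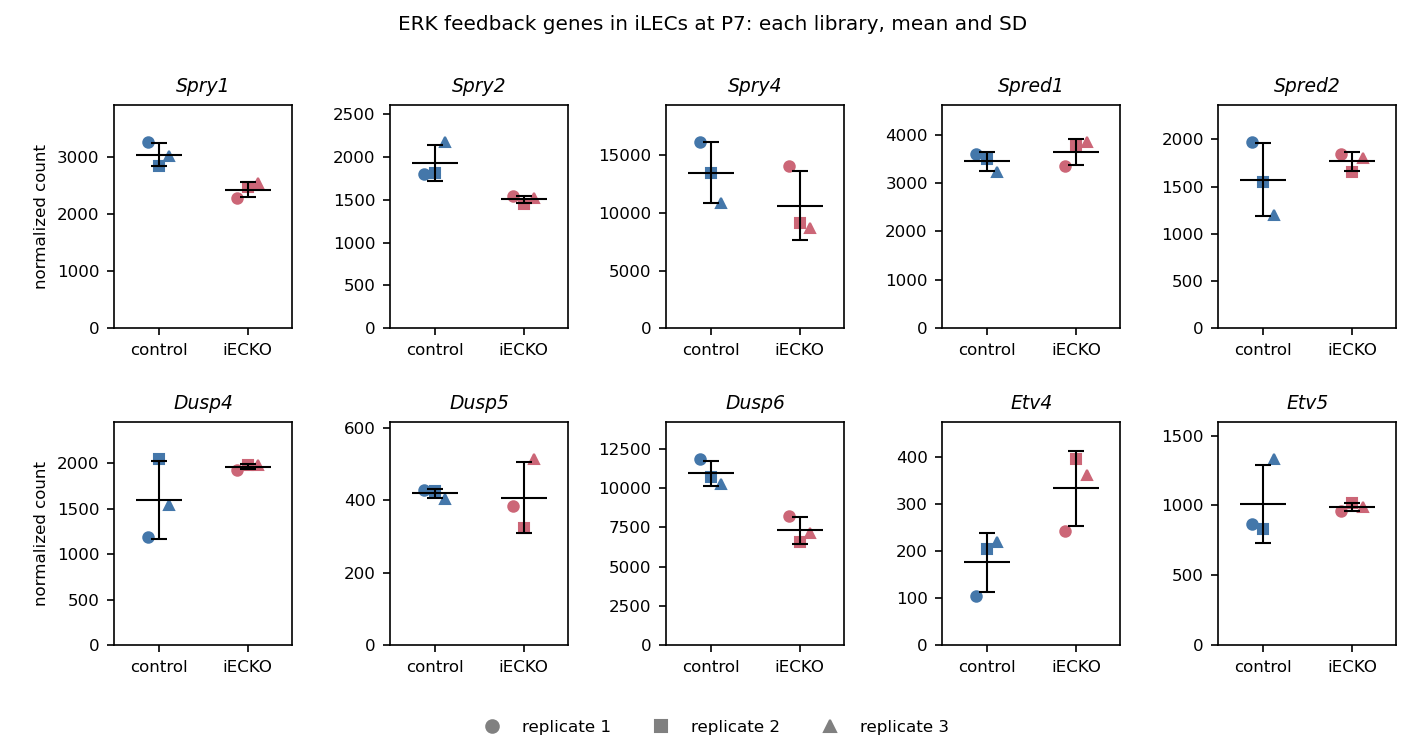
Normalized count (vertical axis, from 0) of each of the 10 genes in each control library (blue) and iECKO library (red), with replicates 1 to 3 as circle, square and triangle, and the mean and SD of each genotype as bars. The genotypes do not overlap for *Spry1*, *Spry2* and *Dusp6*, which are lower, and *Etv4*, which is higher in iECKO, and the controls spread more widely than the iECKO libraries for *Dusp4*, *Spred2* and *Etv5*.

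The promoters of the 3 genes that lay lower in every iECKO library are printed to show the sequence just before each start, together with that of *Dusp5*, a phosphatase gene whose genotypes overlapped. Each line gives 250 bases that end at the base before the RefSeq start in the mouse build GRCm38.p6, on the gene's own strand from 5′ to 3′. Capitals mark the ETS core GGAA on either strand (GGAA or TTCC) and, in *Dusp5*, the SRF CArG box. Of the 10 genes, 7 had an entry in the RefSeq promoter table.
*Dusp6*, chr10:99262981-99263230, plus strand: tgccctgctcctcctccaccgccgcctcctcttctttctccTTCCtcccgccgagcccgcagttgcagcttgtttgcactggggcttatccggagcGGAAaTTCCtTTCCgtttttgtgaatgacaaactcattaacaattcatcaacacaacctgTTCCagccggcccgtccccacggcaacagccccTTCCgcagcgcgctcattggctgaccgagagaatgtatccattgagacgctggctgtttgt
*Spry1*, chr3:37639697-37639946, plus strand: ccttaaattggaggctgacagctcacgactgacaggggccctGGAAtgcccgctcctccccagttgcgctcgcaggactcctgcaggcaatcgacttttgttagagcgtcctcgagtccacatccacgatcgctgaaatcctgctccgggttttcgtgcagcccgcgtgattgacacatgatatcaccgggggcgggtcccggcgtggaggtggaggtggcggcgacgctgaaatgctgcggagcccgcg
*Spry2*, chr14:105896820-105897069, minus strand: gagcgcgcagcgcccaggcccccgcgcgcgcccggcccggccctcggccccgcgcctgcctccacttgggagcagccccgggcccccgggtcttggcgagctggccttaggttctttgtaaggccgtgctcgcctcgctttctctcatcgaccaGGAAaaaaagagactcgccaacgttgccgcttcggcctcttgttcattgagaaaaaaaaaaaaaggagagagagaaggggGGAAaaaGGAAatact
*Dusp5*, chr19:53528895-53529144, plus strand: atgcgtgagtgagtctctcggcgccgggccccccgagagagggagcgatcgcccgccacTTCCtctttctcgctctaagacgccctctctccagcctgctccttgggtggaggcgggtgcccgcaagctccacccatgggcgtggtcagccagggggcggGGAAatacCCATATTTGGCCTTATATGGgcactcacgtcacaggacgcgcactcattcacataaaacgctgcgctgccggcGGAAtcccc

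Motifs of factors that act with or downstream of ERK were searched on both strands of these windows. They were the ETS sites CCGGAAGT (present in 2.88% of 32851 mouse promoter windows of the same length) and CAGGAAGT (2.69%), the AP-1 site TGANTCA (6.75%), the CRE TGACGTCA (1.55%) and the SRF CArG box (1.47%). None of these was in the windows of *Dusp6*, *Spry1* or *Spry2*. The window of *Dusp5* held 2 CArG boxes that adjoin without overlapping, starting 82 and 72 bases before the RefSeq start. The GENCODE start of *Dusp5*, used for its coordinates below, lies 36 bases before the RefSeq start and thus within the window. The ETS core GGAA, which lies within both ETS sites, was added after these searches had been seen. It occurs in 93.4% of the windows with a median of 3 matches. The window of *Dusp6* held 6 cores, of which 3 lay together at 154, 149 and 144 bases before the start, while *Spry2* and *Dusp5* held 3 each and *Spry1* held 1. Among the members whose windows are not printed, *Spred2*, which was not called, held 7. *Spred1* held 4, and the windows of *Etv5* held 4 and 0, so the number of cores did not set *Dusp6* apart. These matches are descriptions of the letters in the windows, and binding was not measured.

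The Sprouty genes had iECKO means of 77.9% to 79.8% of the control means, and none of the 3 was called by limma, although 2 had an unadjusted *P* value below 0.05. *Spry1* (chromosome 3, 37639947 to 37644598, plus strand) was at 3253, 2842 and 3014 normalized counts in the controls and 2277, 2462 and 2533 in the iECKO libraries. The lowest control library was above the highest iECKO library, and the means were 3037 ± 206 and 2424 ± 132 (SD, n = 3 each). Its log2 fold change was -0.32 (SE 0.08, 95% CI -0.52 to -0.13), with an adjusted *P* value of 0.0562 by limma, above the threshold of 0.05. *Spry2* (chromosome 14, 105891947 to 105896819, minus strand) was at 1804, 1818 and 2175 in the controls and 1540, 1458 and 1519 in the iECKO libraries. Here the iECKO libraries lay close together (SD 42.8 around 1506), all below the controls (SD 210.2 around 1932), and the log2 fold change was -0.35 (SE 0.10, 95% CI -0.58 to -0.13), with an adjusted *P* value of 0.0619. For both genes each of the 3 iECKO libraries lay below the control mean, by -0.41 to -0.26 for *Spry1* and -0.40 to -0.32 for *Spry2* on the log2 scale. The -0.41 of *Spry1* was that of iECKO replicate 1, the library with the most *Atp6ap2* of its group.

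*Spry4* (chromosome 18, 38586247 to 38601415, minus strand) was the most abundant Sprouty gene and the most variable between libraries. It was at 16132, 13474 and 10866 normalized counts in the controls and 14105, 9096 and 8686 in the iECKO libraries. The genotypes overlapped, since iECKO replicate 1 was above control replicates 2 and 3, and the coefficient of variation was 19.5% in the controls and 28.4% in the iECKO libraries. The log2 fold change of -0.36 (SE 0.21) was as large as that of *Spry2*, but its 95% CI ran from -0.84 to 0.12, and the adjusted *P* value was 0.348 by limma. Against the control mean, iECKO replicates 2 and 3 were at -0.55 and -0.62 on the log2 scale and iECKO replicate 1, the library with the most *Atp6ap2* of its group, was at 0.08. Without iECKO replicate 1 the log2 fold change of *Spry4* was -0.58 (adjusted *P* value of 0.0861), and without control replicate 1, iECKO replicate 2 and iECKO replicate 3 in turn it was -0.22, -0.27 and -0.23 (adjusted *P* values of 0.584 to 0.681). With the replicate number as a block in the fit, the SE of *Spry4* was 0.09 and its adjusted *P* value by limma was 0.0578. The Sprouty genes, none of them called, had iECKO means below their control means. In the same iECKO libraries the fibroblast and mural marker sums were at 31.2% and 34.0% of the controls. The part of those cells in the Sprouty values was not tested.

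The Spred genes had iECKO means of 105.9% and 112.2% of the control means and were not called. *Spred1* (chromosome 2, 117121374 to 117182279, plus strand), which brings neurofibromin to RAS, was at 3599, 3497 and 3233 normalized counts in the controls and 3343, 3757 and 3842 in the iECKO libraries. *Spred2* (chromosome 11, 19924375 to 20024026, plus strand), its close relative, was at 1970, 1548 and 1202 in the controls and 1843, 1655 and 1801 in the iECKO libraries. The genotypes overlapped for both, and the control range of *Spred2* held every iECKO library. The log2 fold changes were 0.08 (SE 0.09, 95% CI -0.12 to 0.28) for *Spred1* and 0.19 (SE 0.17, 95% CI -0.19 to 0.58) for *Spred2*, with adjusted *P* values of 0.621 and 0.532. Neither interval reaches the point estimates of *Spry1* and *Spry2*, but that of *Spred2* overlaps their intervals (-0.52 to -0.13 and -0.58 to -0.13). The Spred and Sprouty genes were not tested against each other. *Spred2* was at 0.37 without control replicate 1 and at 0.015 without control replicate 3, and *Spred1* ran from 0.037 without control replicate 3 to 0.14 without iECKO replicate 1.

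Among the phosphatase genes, *Dusp6* (chromosome 10, 99263231 to 99267489, plus strand) was the one called. It encodes the cytoplasmic phosphatase most specific to ERK. It was at 11855, 10697 and 10287 normalized counts in the controls and 8242, 6551 and 7123 in the iECKO libraries. The lowest control library was well above the highest iECKO library, and the means of 10946 ± 813 and 7305 ± 860 (SD, n = 3 each) put the iECKO level at 66.7% of the control level. The log2 fold change was -0.59 (SE 0.11, 95% CI -0.83 to -0.34), with an adjusted *P* value of 0.0200 by limma. Without each library in turn the log2 fold change was between -0.68 and -0.51. With no overlap between genotypes, omission of a library could not change its sign. The call did not hold without control replicate 3 (adjusted *P* value of 0.0527 by limma), iECKO replicate 2 (0.0807) or iECKO replicate 3 (0.0831). In the 4 libraries that held *Xist* the log2 fold change was -0.56 (adjusted *P* value of 0.160), and between the pair that lacked it, control replicate 3 and iECKO replicate 2, the log2 ratio was -0.65. *Dusp6* fell in the libraries with low fibroblast and mural marker sums, and the part of those cells in its difference was not tested.

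*Dusp4* and *Dusp5*, the nuclear ERK phosphatases, were not called. *Dusp4* (chromosome 8, 34807297 to 34819894, plus strand) was at 1192, 2046 and 1541 normalized counts in the controls and 1929, 1984 and 1977 in the iECKO libraries. The controls ranged widely and the iECKO libraries lay close together, with coefficients of variation of 27.0% and 1.54%, and control replicate 2 was above all 3 of them. The log2 fold change was 0.34 (SE 0.17, 95% CI -0.07 to 0.74), with an adjusted *P* value of 0.290. This value rested on single controls, as it was 0.14 without control replicate 1 (adjusted *P* value of 0.533) and 0.53 without control replicate 2 (0.0556). *Dusp5* (chromosome 19, 53529109 to 53542431, plus strand) was at 427.7, 425.3 and 404.7 in the controls and 384.1, 322.4 and 514.3 in the iECKO libraries. Here the controls lay close together and the iECKO libraries fell on either side of them, and the log2 fold change was -0.07 (SE 0.18, 95% CI -0.48 to 0.34, adjusted *P* value of 0.854). The log2 fold change of *Dusp5* turned to 0.085 without iECKO replicate 2.

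**Figure D2:**
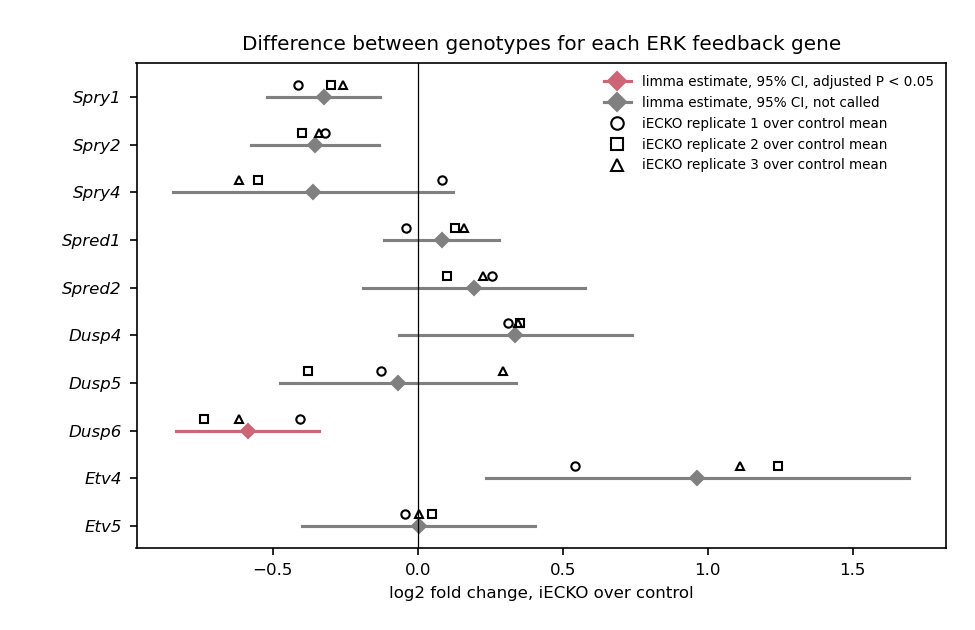
Log2 fold change of iECKO over control (horizontal axis) for each gene, with the limma estimate (diamond) and its 95% CI (line), red where the adjusted *P* value is below 0.05, and the log2 ratio of each iECKO library to the control mean (open symbols). *Dusp6* at -0.59 is the only red gene, and the intervals of *Spry1*, *Spry2* and *Etv4* leave out 0. iECKO replicate 1 lies nearest to 0 or across it for *Spry4*, *Dusp6* and *Etv4*, among others, but farthest from 0 of its group for *Spry1* and *Spred2*.

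Neither PEA3 gene among the members was called. *Etv4* (chromosome 11, 101769742 to 101785371, minus strand) was the least abundant of the 10 genes and had the widest difference. It was at 103.4, 203.5 and 219.3 normalized counts in the controls and 242.9, 395.1 and 360.8 in the iECKO libraries. Every iECKO library was above every control, although iECKO replicate 1 exceeded control replicate 3 by little, and the means were 175.4 ± 62.9 and 332.9 ± 79.8 (SD, n = 3 each). The log2 fold change was 0.96 (SE 0.32), with a 95% CI of 0.23 to 1.69 and an adjusted *P* value of 0.109 by limma. Without each library in turn the log2 fold change of *Etv4* ran from 0.62, without control replicate 1, to 1.18, without iECKO replicate 1. *Etv4* was not called in any of these fits (adjusted *P* values of 0.0861 to 0.289 by limma). With the replicate number as a block in the fit, it was called higher (SE 0.17, adjusted *P* value of 0.0193 by limma), though whether the numbers mark pairs is not known. *Etv5* (chromosome 16, 22381309 to 22439719, minus strand) was at 865.5, 834.0 and 1332 in the controls and 957.9, 1020 and 989.8 in the iECKO libraries. Control replicate 3, which also had the highest epithelial marker sum, stood above all others, and the log2 fold change was 0.00 (0.00282, SE 0.17, 95% CI -0.40 to 0.40, adjusted *P* value of 0.994). Without control replicate 3 the log2 fold change of *Etv5* was 0.22, and without control replicates 1 and 2 in turn it was -0.09 and -0.12. The part of epithelial cells in the *Etv5* value of control replicate 3 was not tested.

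Levels were compared between genes per kb of exon, with the exons of all annotated transcripts of a gene merged, and the order depends on these lengths. In the controls the order was *Dusp6* (3495 ± 260 normalized counts per kb), *Spry4* (2837 ± 554), *Spry1* (1045 ± 71.0), *Spry2* (926 ± 101), *Dusp4* (581 ± 157), *Spred1* (508 ± 27.8), *Spred2* (341 ± 83.3), *Etv5* (246 ± 68.0), *Dusp5* (170 ± 5.11) and *Etv4* (56.5 ± 20.3). The neighbours *Dusp6* and *Spry4*, *Spry1* and *Spry2*, *Dusp4* and *Spred1*, and *Spred2* and *Etv5* overlapped between control libraries, and the other neighbours did not. The order of the means in the iECKO libraries was the same. These are levels in the whole CD31-selected sample, in which the share of each cell type is not known.

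The make-up of each family was taken per kb as well. The 3 ERK phosphatase genes summed to 4010 to 4393 normalized counts per kb in the controls and 2946 to 3491 in the iECKO libraries. *Dusp6* held 78.8% to 86.2% of that sum in the controls and 71.0% to 75.4% in the iECKO libraries, and *Dusp4* held 9.90% to 17.2% and 20.2% to 24.6%. The ratio of *Dusp6* to *Dusp4* was 8.70, 4.57 and 5.84 in the controls and 3.74, 2.89 and 3.15 in the iECKO libraries, so the genotypes did not overlap. In the Sprouty family *Spry4* held 52.4% to 63.1% in the controls and 53.3% to 66.1% in the iECKO libraries, and the ranges overlapped. Spred sums were 737 to 957 and 892 to 956 per kb and overlapped.

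*Etv1*, the remaining PEA3 gene, was lower in the iECKO libraries, whereas *Etv4* had its higher values there. *Etv1* was at 604.0, 953.0 and 903.9 normalized counts in the controls and 358.1, 338.5 and 318.1 in the iECKO libraries, with a log2 fold change of -1.25 (SE 0.18, adjusted *P* value of 0.0109 by limma). Of the PEA3 sum per kb, which was 290 to 463 in the controls and 339 to 401 in the iECKO libraries, *Etv1* held 14.7% to 21.05% and 6.27% to 7.95%, while *Etv4* held 11.5% to 19.3% and 23.1% to 31.7%. The ratio of *Etv4* to *Etv1* was 0.733, 0.915 and 1.04 in the controls and 2.91, 5.00 and 4.86 in the iECKO libraries. The size of these shares and ratios depends on the exon lengths used, 13.3 kb for *Etv1* and 3.1 kb for *Etv4*. The groups stood apart on this ratio with no overlap, which follows from *Etv1* and *Etv4* each having no overlap, in opposite directions. The iECKO mean of *Etv1* was 41.2% of the control mean, in the same libraries in which the fibroblast and mural marker sums were at 31.2% and 34.0%, and the part of those cells in the values of *Etv1* and in the ratio was not tested. Both ratios were chosen after the values had been seen and have no test.

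**Figure D3:**
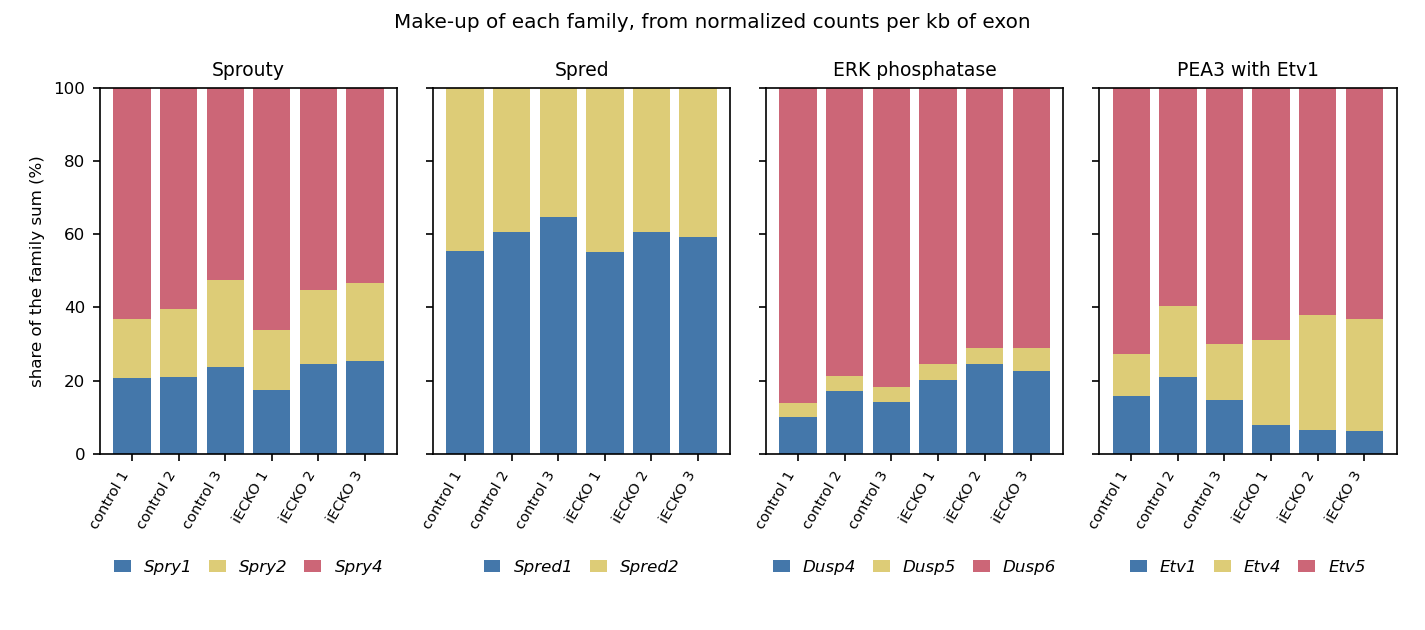
Share of each gene (vertical axis, percent) in the sum of its family in normalized counts per kb of exon, 1 bar per library, for the Sprouty, Spred, ERK phosphatase and PEA3 genes (with *Etv1*). The *Dusp6* share is 78.8% to 86.2% in controls and 71.0% to 75.4% in iECKO, and *Etv1* falls to 6.27% to 7.95% of the PEA3 sum while the Sprouty and Spred bars overlap between genotypes.

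The genes around the 10 members were described by 5 lists with 70 genes tested of 71 listed (*Spry3* had no row). Of these, 7 were lower and 3 higher, with a median log2 fold change of -0.06, 45 values below 0 and 25 above. Over all genes tested, 4.97% were lower and 3.28% higher. At an unadjusted *P* value below 0.05 by limma, 18 of the 70 were lower and 3 higher, beside 12.3% and 11.6% of all genes. The same shares of all genes apply to the counts of each list below. The count of 10 was 3 without control replicate 3, 3 without iECKO replicate 2 and 2 without iECKO replicate 3. It was 0 by limma in the 4 libraries with *Xist*.

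Of the family relatives, 2 of 11 were lower and 1 higher, with a median of -0.16. At an unadjusted *P* value below 0.05, 4 were lower, with *Dusp14* and *Dusp1* in addition, and 1 higher. Beside *Etv1*, *Il17rd*, which encodes an inhibitor of FGF signaling at the membrane, was lower at 2786 against 3893 normalized counts (log2 fold change -0.48, adjusted *P* value of 0.0274). *Dusp2*, an inducible nuclear phosphatase, was higher at 954 against 625 (log2 fold change 0.63, adjusted *P* value of 0.0410). The relatives thus held calls on either side, as the members held differences on either side.

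Of 10 other ERK target genes, 1 was lower and 2 higher, with a median of -0.17. At an unadjusted *P* value below 0.05 the balance was the opposite, 4 lower and 2 higher, since *Epha4*, *Fos* and *Egr1* joined *Errfi1* (log2 fold changes of -0.45, -0.39 and -0.42, adjusted *P* values of 0.147, 0.188 and 0.202). *Errfi1*, a feedback inhibitor of the EGF receptor, was lower at 4077 against 4992 (log2 fold change -0.29, adjusted *P* value of 0.0405). *Ccnd1*, which encodes the G1 cyclin D1, was at 9341, 10780 and 8296 in the controls and 13955, 18526 and 19078 in the iECKO libraries (log2 fold change 0.85, adjusted *P* value of 0.0170). *Myc*, a growth transcription factor, was at 803, 828 and 545 in the controls and 1228, 1172 and 1385 in the iECKO libraries (log2 fold change 0.82, adjusted *P* value of 0.0274). Both were above every control in every iECKO library, opposite to *Dusp6*.

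None of 14 genes of the RAS-RAF-MEK-ERK cascade was called by limma, and 0 had an unadjusted *P* value below 0.05. Their log2 fold changes ran from -0.20 to 0.22 around a median of 0.04, with *Map2k1* (-0.20, adjusted *P* value of 0.232), *Rps6ka2* (0.22, 0.248) and *Nras* (0.16, 0.280) the nearest to the threshold. None of 17 adaptors and RAS regulators was called by limma, and 3 were lower at an unadjusted *P* value below 0.05, with a median log2 fold change of -0.06 for the list. These were the RAS inactivator *Rasa1* (-0.30, adjusted *P* value of 0.123) and the receptor adaptors *Gab1* (-0.31, 0.133) and *Frs2* (-0.20, 0.157).

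Of 18 receptor tyrosine kinase genes, 4 were lower and 0 higher by limma (7 lower and 0 higher at an unadjusted *P* value below 0.05), with a median of -0.24. *Pdgfrb* was at 2292 against 6642 normalized counts (log2 fold change -1.54, adjusted *P* value of 0.00831) and *Pdgfra* at 692 against 1740 (-1.35, 0.0153), the PDGF receptors of mural cells and fibroblasts, and both are also in the marker lists above. *Fgfr4*, an FGF receptor, was at 406 against 1242 (-1.66, 0.0174). *Tek*, the angiopoietin receptor of endothelial cells and also an endothelial marker, was at 16477 against 23694 (-0.53, 0.0292). The VEGF receptor gene *Kdr* was not called, at 48296 against 43175.

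**Figure D4:**
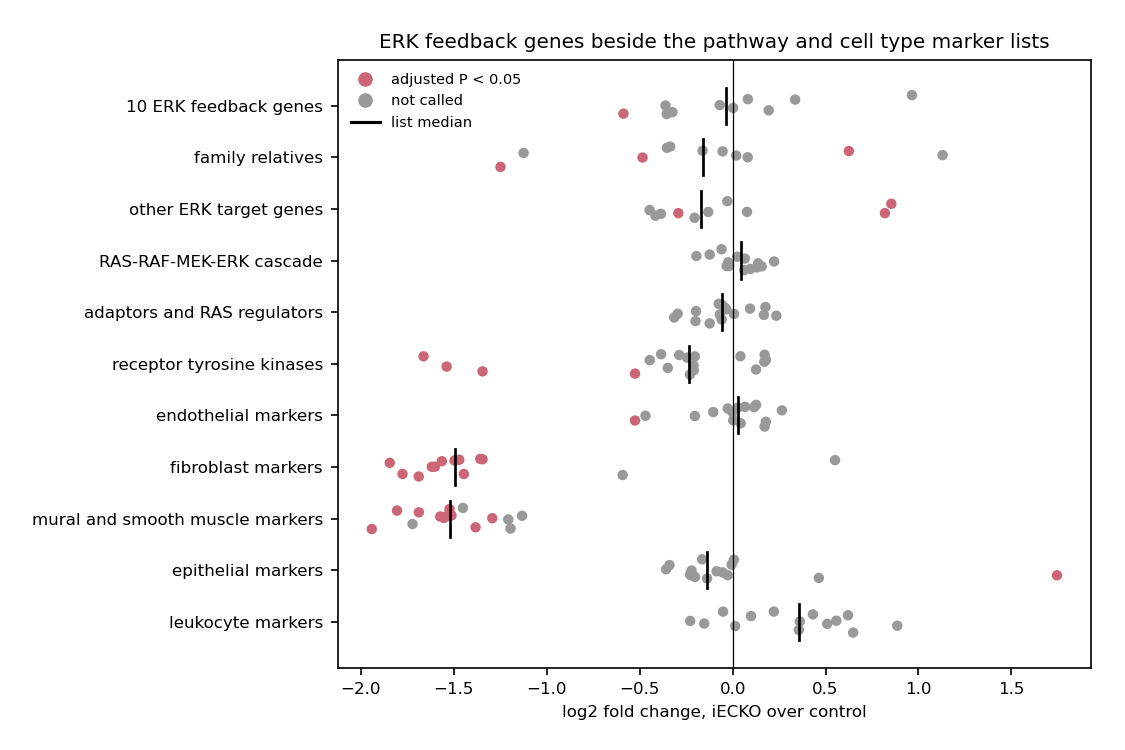
Log2 fold change of iECKO over control (horizontal axis) of every tested gene in the 10 feedback genes, the 5 pathway lists and the 5 marker lists (1 row each), red where the adjusted *P* value is below 0.05, with the list median as a bar. The feedback genes lie on either side of 0 around -0.03, the cascade lies between -0.20 and 0.22, and the fibroblast and mural medians lie at -1.50 and -1.52.

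Genes with the most similar pattern over the 6 libraries were found for the 3 members with the widest differences, among 11320 genes with a mean of at least 100. Likeness was the root mean square difference of log2 values, each gene centred on its own mean, so that a small value means a close match. *Dusp6* was closest to *Tle3* (0.0347 on the log2 scale), *Tsc22d1* (0.0370) and *Adam9* (0.0460). *Etv4* had no match as close, with *Chchd4* at 0.132, *Ppa1* at 0.154 and *Haspin* at 0.160. *Spry4* was closest to the endothelial marker *Calcrl* (0.0776), followed by *Cacna1a* (0.0816) and *Hipk4* (0.0819). Since the likeness was taken over the same libraries as the comparison, it is a description with no test.

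In the 4 libraries that held *Xist*, 2 per genotype, none of the 14094 genes tested was called by limma, the members included (adjusted *P* values from 0.160). At an unadjusted *P* value below 0.05, 2 members were lower and 1 higher, beside 8.59% and 7.00% of all genes in that fit. The log2 fold changes there were -0.34 for *Spry1*, -0.24 for *Spry2*, -0.41 for *Spry4*, -0.56 for *Dusp6*, 1.02 for *Etv4* and 0.32 for *Dusp4*. Those of *Spred1* (0.015), *Spred2* (0.061), *Dusp5* (0.059) and *Etv5* (0.20) were smaller, and *Dusp5* changed sign. The pair of libraries without *Xist*, which is part of the 6 libraries compared above, is described with 1 library per genotype and no test. From control replicate 3 to iECKO replicate 2, the log2 ratio was -0.29 for *Spry1*, -0.58 for *Spry2*, -0.26 for *Spry4* and -0.65 for *Dusp6*. It was 0.85 for *Etv4*, 0.36 for *Dusp4*, 0.22 for *Spred1* and 0.46 for *Spred2*. These 8 had the sign of the comparison over all 6 libraries. For *Dusp6*, *Spry1*, *Spry2* and *Etv4* this sign was fixed in advance, since their genotypes did not overlap. *Dusp5* and *Etv5* were at -0.33 and -0.38, and *Etv5* differed in sign from its value over all libraries.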

How the data were processed

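RNA-Seq was compared between iLECs of 3 control and 3 *Atp6ap2* iECKO samples, grouped by the genotype in the labels. The authors aligned reads to mm10 with BaseSpace tools and deposited 1 value per gene symbol and library. Although the labels call them raw counts, these deposited values are a normalized signal, as no value above 0 is whole and the median ratio to the geometric mean is 1.0036 in each library. Read numbers are unknown, so no counting interval is given, and precision rests on 3 libraries per genotype. The labels do not tie each library to an animal, so *P* values measure the spread between these samples.

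Values were tested as log2 of the normalized count plus 1, so that fold changes of low genes are understated. Genes at 10 or more in at least 3 libraries were fitted with limma 3.58.1 in R 4.3.3 (mean-variance trend, no covariate, tested on simulated data), with Benjamini-Hochberg adjustment over all of them and a threshold of 0.05. Calls, "lower" and "higher" refer to this test, and no overlap means that all libraries of a genotype lay on the same side of the other. Symbols were matched to GENCODE M21 (GRCm38) for coordinates and exon length, which is that of all annotated exons of a gene merged. Promoters came from RefSeq.

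The members and lists were chosen with earlier results of these data known. The named genes were all members, *Atp6ap2*, *Xist*, the called genes of each pathway list (or its 3 lowest adjusted *P* values), the first 3 defining markers per list and the 3 genes most like each of 3 members. *Kdr*, *Scgb1a1*, *Spry3*, *Epha4*, *Fos*, *Egr1*, *Dusp1* and *Dusp14* were named in addition, after their values had been seen. Alternatives were scaling, filter, pseudocount, variance model, threshold, a replicate block, an *Xist* covariate, omission of each library and, added after seeing the data, only the libraries with *Xist*.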

Additional observations from a re-analysis of the deposited data

How the results depend on the processing

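Among the 10 members, the count called (1) became 2 with the replicate number as a block (*Dusp6* lower and *Etv4* higher, adjusted *P* value of 0.0193 for *Etv4*), 0 with no variance trend, 3 (all lower) at a threshold of 0.1, 0 in the 4 libraries with *Xist* (2 lower and 1 higher unadjusted) and 0 to 1 without each library. Deviations of same-numbered libraries correlated at 0.252, 0.114 and 0.0782, and those of other pairings at -0.208 to 0.1. Control replicates 1 and 2 correlated best with the iECKO library of their own number. Control replicate 3 correlated best (0.1) with iECKO replicate 2, the other library without *Xist*. The main fit took no pairs, as neither the labels nor the study describe any. Whether the numbers mark pairs is not known. With the block the count over all genes was 1508 and the SE of *Atp6ap2* was 0.13. The adjusted *P* value of *Spry4* by limma was then 0.0578. The pathway count (10) was 2 with no trend, 0 in the *Xist* libraries and 2 to 8 without each library. Over all genes the count (1193; 719 lower, 474 higher) was 304 with no trend, 767 with the *Xist* covariate, 1987 at a threshold of 0.1, 0 in the *Xist* libraries (1210 lower and 986 higher unadjusted) and 206 to 983 without each library. Library size scaling gave 599 lower and 573 higher, and omission of control replicate 2 gave 365 and 460. *Atp6ap2* was at -1.22 with no trend (adjusted *P* value of 0.0917), -1.19 in the *Xist* libraries (0.217) and -1.54 to -0.999 without each library. Over 18 alternatives *Dusp6* had adjusted *P* values by limma of 0.0123 to 0.160, past 0.05 in 13 (0.0693 with no trend). Those of *Spry1* were 0.0509 to 0.285, those of *Spry2* 0.0558 to 0.351 and those of *Etv4* 0.0193 to 0.289. The log2 fold changes of *Dusp6*, *Spry1*, *Spry2* and *Etv4* kept their sign, which omission of a library could not change, as their genotypes did not overlap. *Dusp5* ranged from -0.25 to 0.085 and *Etv5* from -0.12 to 0.22 without each library. *Dusp5* turned positive without iECKO replicate 2 and in the *Xist* libraries (0.059), and *Etv5* negative without control replicate 1 (-0.09), control replicate 2 (-0.12) and iECKO replicate 2 (-0.02). The cause was not tested. With read depth unknown, low values such as those of *Etv4* have no counting error attached.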
